A study of Mus musculus with 5 samples.

Results

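This account concerns 46 type I interferon-stimulated genes, the transcripts that cells switch on when interferon reaches them, in mouse glioma and normal mouse brain. The members were a fixed list of gene symbols, chosen with earlier results of these data known. Symbols were matched to probes through the RefSeq accession that the array design gives for each probe, not through any measured value. Of the 46 genes, 42 had at least 1 named probe, 53 probes in all, among the 21149 genes named on the array. Total RNA was hybridised to single-colour Agilent mouse expression arrays, with 1 array for each of 3 gliomas and 2 normal brain samples, all of postnatal day 150. The gliomas come from a model based on MADM (mosaic analysis with double markers), a genetic scheme in which recombination between chromosomes marks and mutates scattered cells. The labels name no mutated gene, Cre driver, strain, sex or brain region for either group, and they do not say whether the samples of a group came from separate animals, so each p-value rests on the spread between these 5 arrays, part of which may be technical.

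Type I interferons are secreted proteins that bind the receptor formed by IFNAR1 and IFNAR2. The receptor's kinases JAK1 and TYK2 activate STAT2, which acts with IRF9 in a complex called ISGF3 that binds the interferon-stimulated response element in the promoters of target genes. The products of these genes block viral entry, translation and replication, and several of them feed back on the pathway. In brain, microglia, astrocytes, neurons and endothelial cells can all respond to interferon, and type III and type II interferons induce overlapping sets of genes.

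Arrays have no read depth, and precision here is set by how few samples were measured. Between 61.5% and 70.3% of the spots other than controls were well above background, and no such spot was saturated. All arrays lay on 1 slide, gliomas in row 1 and normal brain in row 2, so that slide row and group cannot be told apart. The tissue labels were checked against marker lists. All 7 neuronal markers tested were lower in glioma, and all 6 oligodendrocyte progenitor markers were higher in glioma. The transcript Xist, made from the inactive X chromosome of females, exceeded background in glioma 3 alone: its level there was 0.01, while gliomas 1 and 2 had -7.61 and -7.45, and normal brain had -7.16 and -7.03. The Y-linked transcript Ddx3y was at 0.97, 0.46 and -7.85 in gliomas 1 to 3, against 1.45 and 1.26 in normal brain, and Eif2s3y was at 2.71, 0.48 and -7.58, against 0.10 and -0.11. Glioma 3 thus has the transcripts of a female and the other samples those of males, so glioma 3 is not from the same animal as any other sample. A level is the log2 of the processed signal relative to the 75th percentile of its array, taken from the brightest probe of each gene, and levels of different genes are not comparable. Changes are glioma minus normal brain on the log2 scale, ± the fit's standard error (limma), with n = 3 gliomas and n = 2 normal brain samples throughout.

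Interferon-stimulated genes were higher in glioma across nearly the whole list. Testing needed a probe well above background on 2 or more arrays, which 40 members had, and of these 34 rose, 0 fell and 6 did not pass at an adjusted p under 0.05 (limma, Benjamini-Hochberg over all 16891 genes tested). Over all genes tested, 23.6% were called higher and 27.8% were called lower, together 51.4%, or 3994 higher and 4693 lower. The value table of the authors has no scaling between arrays and puts the median of all genes at 0.31; it gave 5598 higher, 3185 lower (63.7% of calls higher) and 36 members that rose. No member was lower at an unadjusted p under 0.05 either, a count of 0. The median change of the 40 members was 3.00, against -0.05 over all genes tested. An increase of at least 8-fold was called for 20 members, where 3.37% of all genes reached it, and at least 4-fold for 28, against 6.91%. In 37 members every glioma lay above both normal brain samples, where 35.2% of all genes had that order. Because the list was chosen with earlier results of these data known, these counts describe it and are no independent test. Of the 40 members, 39 were well above background on all 5 arrays, so their place in the comparison did not rest on the gliomas alone. Without normal brain replicate 1 the number of members called higher was 27, and without normal brain replicate 2 it was 28.

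**Figure D1:**
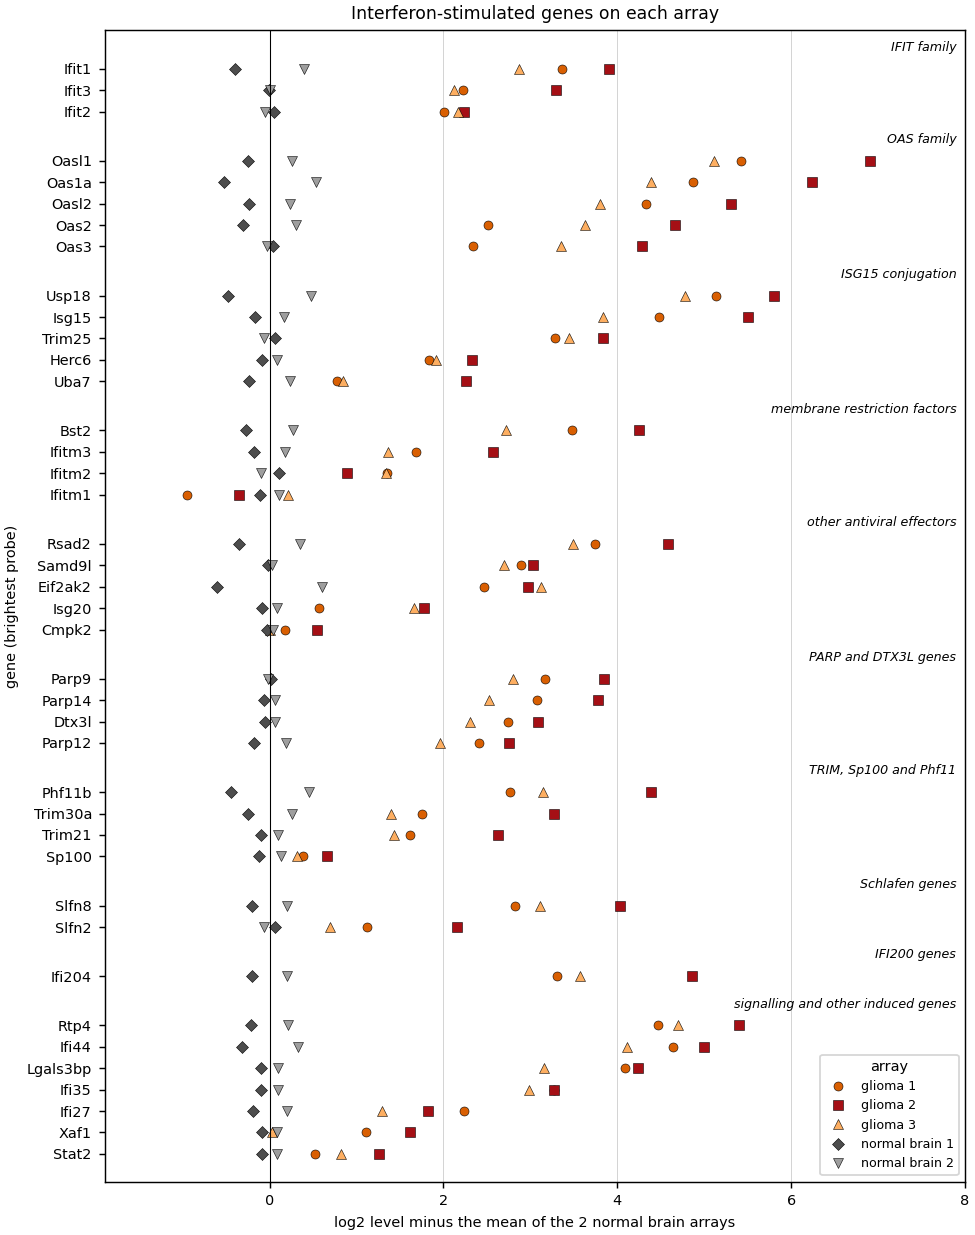
Level of each tested interferon-stimulated gene on each of the 5 arrays, as the log2 level minus the mean of the 2 normal brain arrays, grouped by role. The glioma points lie right of both normal brain points in 37 of 40 genes, and glioma 2 is the rightmost glioma in 35.

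The letters of the interferon-stimulated response element were more frequent in the promoters of the members than in those of all genes. Its core, GAAA followed after any 2 bases by GAAA again, was searched on both strands (on the opposite strand TTTC, 2 bases, TTTC) of the 250 bases before each annotated transcription start (RefSeq, GRCm38.p6), counting overlapping copies separately. Of the 37 members with a promoter in the table, 16 (43.2%) held it, against 3.46% of 27025 genes. Among the members called higher 12 of 27 held it, among those that did not pass 0 of 6, and among those not tested 4 of 4. Oasl1, Ifi44 and Oasl2, with changes of 5.82, 4.59 and 4.48, held no copy, and Usp18 and Rtp4 had no promoter entry. Whether the core goes with the size of the rise was not tested. A match is a run of letters and not a site shown to be bound, and no match says only that these letters are absent from this window. The following 6 windows, each the 150 bases before the start read 5′ to 3′ along the transcribed direction, are shown because they belong to the members with the largest changes that hold the core there, and capitals mark its copies.
Oas1a (chr5:120907526-120907675, minus strand): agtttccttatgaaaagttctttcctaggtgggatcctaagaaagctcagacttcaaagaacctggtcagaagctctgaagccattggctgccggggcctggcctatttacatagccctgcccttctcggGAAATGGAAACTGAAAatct
Isg15 (chr4:156200819-156200968, minus strand): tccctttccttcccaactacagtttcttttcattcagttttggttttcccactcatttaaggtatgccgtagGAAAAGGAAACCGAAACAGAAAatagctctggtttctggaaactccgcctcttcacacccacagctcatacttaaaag
Rsad2 (chr12:26456453-26456602, minus strand): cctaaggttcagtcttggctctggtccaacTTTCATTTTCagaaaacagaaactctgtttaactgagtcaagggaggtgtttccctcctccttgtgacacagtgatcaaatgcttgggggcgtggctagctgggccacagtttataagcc
Bst2 (chr8:71537473-71537622, minus strand): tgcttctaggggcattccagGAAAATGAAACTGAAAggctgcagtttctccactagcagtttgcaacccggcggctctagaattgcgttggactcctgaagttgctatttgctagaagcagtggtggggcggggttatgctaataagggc
Phf11b (chr14:59341331-59341480, minus strand): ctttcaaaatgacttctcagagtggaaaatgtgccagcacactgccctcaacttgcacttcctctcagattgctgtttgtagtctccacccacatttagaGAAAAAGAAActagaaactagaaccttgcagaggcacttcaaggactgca
Ifit1 (chr19:34640739-34640888, plus strand): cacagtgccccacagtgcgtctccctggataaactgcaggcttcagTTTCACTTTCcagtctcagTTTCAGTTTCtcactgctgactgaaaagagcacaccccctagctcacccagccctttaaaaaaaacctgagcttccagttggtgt
In the Isg15 window 3 overlapping copies begin between 78 and 66 bases before the start, and in Oas1a 2 overlapping copies begin at 20 and 14 bases before it. The copies in Ifit1, at 104 and 85 bases, and the copy in Rsad2, at 120 bases, run on the opposite strand.

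The OAS family held the largest rise of any member on the selected probes. These genes encode oligoadenylate synthetases, which make the second messenger that activates RNase L, and related proteins without that activity. All 5 tested genes of the family rose, with fitted changes between 3.33 and 5.82. The level of Oasl1, an inactive relative that in mice restrains translation of Irf7 mRNA, was 0.88, 2.36 and 0.57 in gliomas 1 to 3, against -4.80 and -4.29 in normal brain samples 1 and 2. The gliomas lay at least 4.86 above the higher normal brain sample, and the change of 5.82 ± 0.58 corresponded to 56.4-fold (adjusted p = 0.00128, limma). With normexp background correction, which adds an offset of 50 to every signal, the changes of Oasl1 and Oas2 were 4.40 and 2.55, both still called. Oas1a, an active synthetase, was 2.83, 4.20 and 2.35 on the glioma arrays, against -2.57 and -1.51 on the normal brain arrays (change 5.16 ± 0.64, adjusted p = 0.00243). Its other probe also separated the groups, with a change of 4.50. For Oasl2, whose protein has ubiquitin-like domains, the level was 3.12, 4.09 and 2.59 in gliomas 1 to 3, against -1.45 and -0.98 in normal brain samples 1 and 2 (change 4.48 ± 0.47, adjusted p = 0.00151). In these 3 genes glioma 2 was the highest sample and glioma 3 the lowest glioma. The synthetase gene Oas2 had the widest spread among gliomas of any tested member, a range of 2.15: -1.20, 0.95 and -0.08 on the glioma arrays, against -4.01 and -3.40 on the normal brain arrays (change 3.60 ± 0.65, adjusted p = 0.00831). Its call was lost without normal brain replicate 1, at a change of 3.29 and an adjusted p of 0.0529. Oas3, which makes long oligoadenylates, was well above background on the gliomas only, at -4.66, -2.72 and -3.65 in gliomas 1 to 3, against -6.97 and -7.04 in normal brain samples 1 and 2. On the scaled processed signals it was at least 3.59-fold higher in glioma (adjusted p = 0.0069, limma). That lower bound is set against the lowest level well above background on each normal brain array, or the probe's own where higher. Probes without the flag can lie above that lowest level, so it is not a detection limit. With normexp the change of Oas3 was 0.67, smaller than the bound, and did not pass. The probes for Oas1g were not well above background on any array, and Oas1b was not analysed here. Neighbouring OAS genes are similar in sequence, so a probe may pick up signal from a paralog.

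The IFIT proteins bind viral RNA through tetratricopeptide repeats and hinder its translation. All 3 genes of the family rose. Ifit1, which recognises RNA with an incomplete cap, was at 0.08, 0.62 and -0.42 on the glioma arrays, against -3.68 and -2.88 on the normal brain arrays (change 3.38 ± 0.39, adjusted p = 0.00204). Ifit3, its binding partner, was at 2.17, 3.24 and 2.06 in gliomas 1 to 3, against -0.06 and -0.05 in normal brain samples 1 and 2 (change 2.55 ± 0.39, adjusted p = 0.0049). Ifit2 was at -0.25, -0.03 and -0.09 on the glioma arrays, against -2.21 and -2.31 on the normal brain arrays (change 2.14 ± 0.14, adjusted p = 0.000545). The groups did not overlap in any of the 3 genes. The gliomas differed least from each other in Ifit2, whose range of 0.22 was the smallest of the 40 members. With normexp the change of Ifit1 was 2.59, still called.

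Genes of ISG15 conjugation, which attaches a ubiquitin-like protein to newly made proteins, rose in 4 of 5 cases. The modifier gene Isg15 itself was at 4.56, 5.58 and 3.91 in gliomas 1 to 3, against -0.09 and 0.25 in normal brain samples 1 and 2. The change of 4.60 ± 0.51, 24.3-fold, had an adjusted p of 0.00172, and the gliomas lay at least 3.66 above the normal brain samples. Its other probe gave a change of 4.81. Usp18, the protease that removes ISG15 and also dampens signalling at the receptor, was at 1.89, 2.56 and 1.54 on the glioma arrays, against -3.72 and -2.76 on the normal brain arrays (change 5.24 ± 0.42, adjusted p = 0.000758). Trim25, a ubiquitin ligase that activates the RNA sensor RIG-I, was at 4.65, 5.20 and 4.81 in gliomas 1 to 3, against 1.43 and 1.30 in normal brain samples 1 and 2 (change 3.52 ± 0.21, adjusted p = 0.000458). All gliomas stood far above both normal brain samples in these 3 genes. Herc6, the main ISG15 ligase of mouse, rose by less, 2.03 ± 0.20 (adjusted p = 0.0013). With normexp the changes of Usp18 and Herc6 were 4.37 and 1.17, both still called. Uba7, the enzyme that activates ISG15 at the first step, did not pass. It was at -0.59, 0.90 and -0.52 on the glioma arrays, against -1.60 and -1.12 on the normal brain arrays, so that every glioma was above both normal brain samples while glioma 2 stood apart from the others (change 1.29 ± 0.52, 95% interval -0.03 to 2.61, adjusted p = 0.0899). Without glioma replicate 2 the change of Uba7 was 0.80 and passed (adjusted p = 0.0495).

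Of 4 restriction factors of cell membranes, 3 rose and Ifitm1 did not pass. Bst2, or tetherin, which holds budding virus at the cell surface, was at 3.31, 4.09 and 2.55 in gliomas 1 to 3, against -0.43 and 0.10 in normal brain samples 1 and 2 (change 3.48 ± 0.48, adjusted p = 0.00346). The IFITM proteins hinder the fusion of viruses with endosomes, and their genes lie next to each other on chromosome 7. Ifitm3 was at 2.29, 3.17 and 1.97 on the glioma arrays, against 0.42 and 0.78 on the normal brain arrays (change 1.87 ± 0.39, adjusted p = 0.0132). Ifitm2 was at 1.20, 0.74 and 1.19 in gliomas 1 to 3, against -0.05 and -0.25 in normal brain samples 1 and 2 (change 1.19 ± 0.20, adjusted p = 0.00688), with glioma 2 the lowest glioma. Ifitm1, which lies between them, was at -1.82, -1.22 and -0.66 on the glioma arrays, against -0.98 and -0.76 on the normal brain arrays, and the groups overlapped. Its change of -0.36 ± 0.36 (95% interval -1.29 to 0.56, adjusted p = 0.437) was the only negative estimate among the 40 members. Similar sequences in this family may share signal. The call of Ifitm3 was lost without normal brain replicate 1 (1.69, adjusted p = 0.0811) or 2 (2.05, adjusted p = 0.0523), and that of Ifitm2 without normal brain replicate 2 (1.09, adjusted p = 0.0634).

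Among the other antiviral effectors, 4 of 5 rose. Rsad2 encodes viperin, an enzyme that makes a chain-terminating nucleotide, and was at -0.12, 0.72 and -0.38 in gliomas 1 to 3, against -4.22 and -3.52 in normal brain samples 1 and 2 (change 3.94 ± 0.40, adjusted p = 0.00138). Cmpk2, a mitochondrial nucleotide kinase whose gene is the immediate neighbour of Rsad2 on chromosome 12, did not pass. On its brighter probe it was at 0.27, 0.63 and 0.10 on the glioma arrays, against 0.06 and 0.13 on the normal brain arrays (change 0.24 ± 0.20, 95% interval -0.27 to 0.76, adjusted p = 0.352). On its other probe it was at -0.93, 0.26 and -0.38 in gliomas 1 to 3, against 0.31 and 0.16 in normal brain samples 1 and 2, and that probe went the opposite way (change -0.58 ± 0.36, adjusted p = 0.232 with every detected probe fitted on its own). Cmpk2 was the only 1 of the 10 members with several detected probes whose probes disagreed in direction. Samd9l, a restraint on viral translation, was at 1.96, 2.09 and 1.76 on the glioma arrays, against -0.96 and -0.91 on the normal brain arrays (change 2.87 ± 0.16, adjusted p = 0.000404), and its other probe gave 2.91. Eif2ak2, the kinase PKR that halts translation on double-stranded RNA, was at -0.15, 0.37 and 0.52 in gliomas 1 to 3, against -3.22 and -2.00 in normal brain samples 1 and 2 (change 2.86 ± 0.42, adjusted p = 0.00417). Its change was 2.25 without normal brain replicate 1 and 3.46 without replicate 2, and that of Rsad2 was 2.80 with normexp, all still called. Unlike in most members, glioma 3 was the highest sample for Eif2ak2. The exonuclease gene Isg20 rose by 1.34 ± 0.40 (adjusted p = 0.0414). That call rested on most of the arrays: the adjusted p was 0.1 without glioma replicate 2 or 3, and leaving out normal brain replicates 1 and 2 gave 0.169 and 0.132, with 0.116 on its other probe. Mx2 and Ddx60 were not analysed here.

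**Figure D2:**
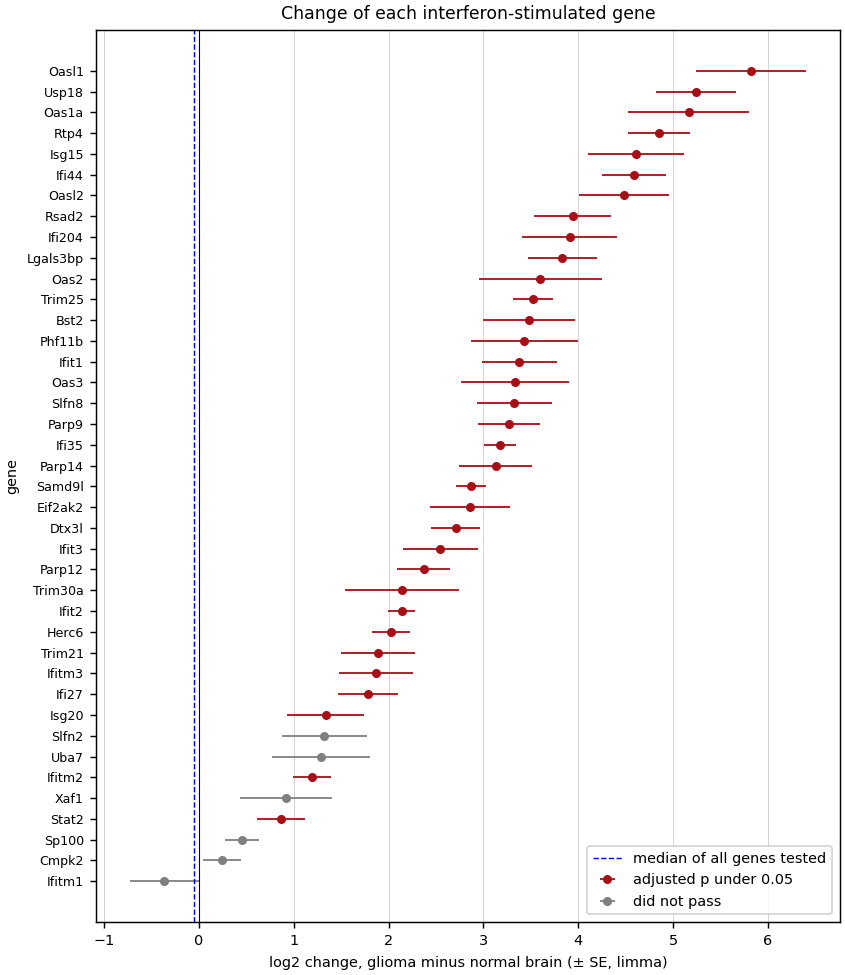
Fitted log2 change of each tested interferon-stimulated gene, glioma minus normal brain, with its standard error (3 gliomas, 2 normal brain samples), ordered by size. Red points passed at an adjusted p under 0.05, grey points did not, and the dashed line is the median of all genes tested (-0.05). Oas3 was not well above background in normal brain, so its fitted value is not a measured size.

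All 4 genes of ADP-ribosylation rose. PARP9 and DTX3L form a ubiquitin ligase that modifies histones and viral proteases, and PARP12 and PARP14 attach ADP-ribose to proteins. In the RefSeq gene order Parp14, Dtx3l and Parp9 are neighbours on chromosome 16. Parp9 was at 1.11, 1.78 and 0.74 on the glioma arrays, against -2.04 and -2.08 on the normal brain arrays (change 3.27 ± 0.33, adjusted p = 0.00129). Parp14 was at 1.47, 2.17 and 0.91 in gliomas 1 to 3, against -1.68 and -1.55 in normal brain samples 1 and 2 (change 3.13 ± 0.38, adjusted p = 0.0024), and Dtx3l at 0.93, 1.28 and 0.49 on the glioma arrays, against -1.87 and -1.75 on the normal brain arrays (change 2.71 ± 0.26, adjusted p = 0.00114). The other Dtx3l probe gave a smaller change of 1.47 ± 0.31 (adjusted p = 0.0132, limma). It was well above background on only 1 normal brain array, so that size is uncertain. In each of these 3 genes the gliomas had the same order, with glioma 2 highest and glioma 3 lowest, and no overlap with normal brain. Parp12, on another chromosome, rose by 2.37 ± 0.28 (adjusted p = 0.00212).

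Of the 4 TRIM, Sp100 and Phf11 genes, 3 rose. Phf11b, a PHD finger gene, was at -0.59, 1.03 and -0.22 in gliomas 1 to 3, against -3.80 and -2.91 in normal brain samples 1 and 2 (change 3.43 ± 0.56, adjusted p = 0.00601). Trim30a, which in mouse restrains NF-kB signalling, was at -1.84, -0.31 and -2.19 on the glioma arrays, against -3.84 and -3.33 on the normal brain arrays (change 2.14 ± 0.60, adjusted p = 0.0342). Trim21, a ubiquitin ligase that also binds antibody in the cytosol, was at -0.70, 0.32 and -0.88 in gliomas 1 to 3, against -2.41 and -2.21 in normal brain samples 1 and 2 (change 1.89 ± 0.39, adjusted p = 0.0132). Glioma 2 exceeded the other gliomas by over 1 log2 unit in all 3 of these genes. The call of Trim30a was lost without glioma replicate 1 (2.33, adjusted p = 0.0599), on leaving out normal brain replicate 1 (1.89, 0.154) or 2 (2.39, 0.0932) and with normexp (1.33, 0.0536). Trim21 lost its call without normal brain replicate 1 (1.79, adjusted p = 0.0763) or 2 (1.99, 0.0603). Sp100, a scaffold of nuclear bodies, was at -3.75, -3.48 and -3.82 on the glioma arrays, against -4.26 and -4.01 on the normal brain arrays and did not pass (change 0.46 ± 0.18, 95% interval 0.0032 to 0.91, adjusted p = 0.0839). All gliomas were above both normal brain samples for Sp100, but the gap was only 0.19. With normexp the change of Phf11b was 2.57, still called.

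Schlafen proteins restrain growth of immune cells and cleave RNA, and their genes lie in a cluster on chromosome 11. Slfn8 was at -0.53, 0.67 and -0.25 in gliomas 1 to 3, against -3.56 and -3.16 in normal brain samples 1 and 2 (change 3.32 ± 0.40, adjusted p = 0.00218), and its other probe, well above background on the gliomas only, was at least 2.5-fold higher. Its neighbour Slfn2, known in mouse for keeping T cells quiescent, was at -2.29, -1.26 and -2.72 on the glioma arrays, against -3.35 and -3.48 on the normal brain arrays and did not pass (change 1.32 ± 0.45, 95% interval 0.18 to 2.47, adjusted p = 0.0584). The groups did not overlap in either gene. Without glioma replicate 2 (0.91, adjusted p = 0.0334) or 3 (1.64, 0.0325) Slfn2 passed. The Slfn5 probe passed the background flag on 1 glioma array and was not tested, with levels of -7.70, -4.89 and -6.56 in gliomas 1 to 3, against -7.23 and -7.14 in normal brain. Among the IFI200 genes, which encode DNA-binding proteins related to human IFI16, Ifi204 was at 0.03, 1.59 and 0.30 in gliomas 1 to 3, against -3.47 and -3.07 in normal brain samples 1 and 2 (change 3.91 ± 0.50, adjusted p = 0.00276), again with glioma 2 highest. With normexp the changes of Slfn8 and Ifi204 were 2.44 and 3.13, both still called. Ifi203 was not analysed here.

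Of the remaining 7 members, 6 rose. Rtp4, a chaperone of membrane receptors, was at 4.16, 5.10 and 4.39 on the glioma arrays, against -0.52 and -0.09 on the normal brain arrays (change 4.85 ± 0.33, adjusted p = 0.000549). Ifi44 was at -0.12, 0.23 and -0.66 in gliomas 1 to 3, against -5.09 and -4.45 in normal brain samples 1 and 2 (change 4.59 ± 0.34, adjusted p = 0.000642). Lgals3bp, a secreted glycoprotein that binds galectins, was at 5.79, 5.94 and 4.86 on the glioma arrays, against 1.60 and 1.80 on the normal brain arrays (change 3.83 ± 0.36, adjusted p = 0.0011). The groups were far apart in these 3 genes, and with normexp the change of Ifi44 was 2.96, still called. Ifi35 and Ifi27, a small mitochondrial protein gene, rose by 3.17 ± 0.17 and 1.78 ± 0.32 (adjusted p = 0.000403 and 0.00797, limma). Both were highest in glioma 1, though Ifi35 was nearly level in gliomas 1 and 2 (1.667 and 1.663). Ifi27 lost its call without normal brain replicate 1 (1.59, adjusted p = 0.0587). Stat2, the subunit of ISGF3 that carries its activation domain, showed the smallest change that passed, 0.87 ± 0.25 (adjusted p = 0.0383). Its call was lost without glioma replicate 2 (0.67, adjusted p = 0.0506) or 3 (0.89, 0.0726), and on leaving out normal brain replicate 1 (0.78, 0.19) or 2 (0.95, 0.128).

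Xaf1, an antagonist of the apoptosis inhibitor XIAP, gave very different values on its 2 probes, both designed for the same RefSeq transcript. On the brighter probe over all arrays, which the rule selected, it was at 0.58, 1.08 and -0.51 in gliomas 1 to 3, against -0.62 and -0.45 in normal brain samples 1 and 2, and the groups overlapped (change 0.92 ± 0.48, 95% interval -0.31 to 2.15, adjusted p = 0.167). On the other probe it was at 3.02, 3.36 and 1.78 on the glioma arrays, against -7.40 and -7.24 on the normal brain arrays, well above background on every glioma and on neither normal brain array. On the scaled processed signals that probe was at least 303-fold higher in glioma (adjusted p = 0.000397, limma with every detected probe fitted on its own). With the mean of both probes the change was 5.48 (adjusted p = 0.000955). On the selected probe alone it passed without glioma replicate 3, at 1.36 (adjusted p = 0.0121). The gliomas had the same order on both probes, glioma 2 above glioma 1 above glioma 3. What each probe matches within the transcript is not given in the sources used here.

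**Figure D3:**
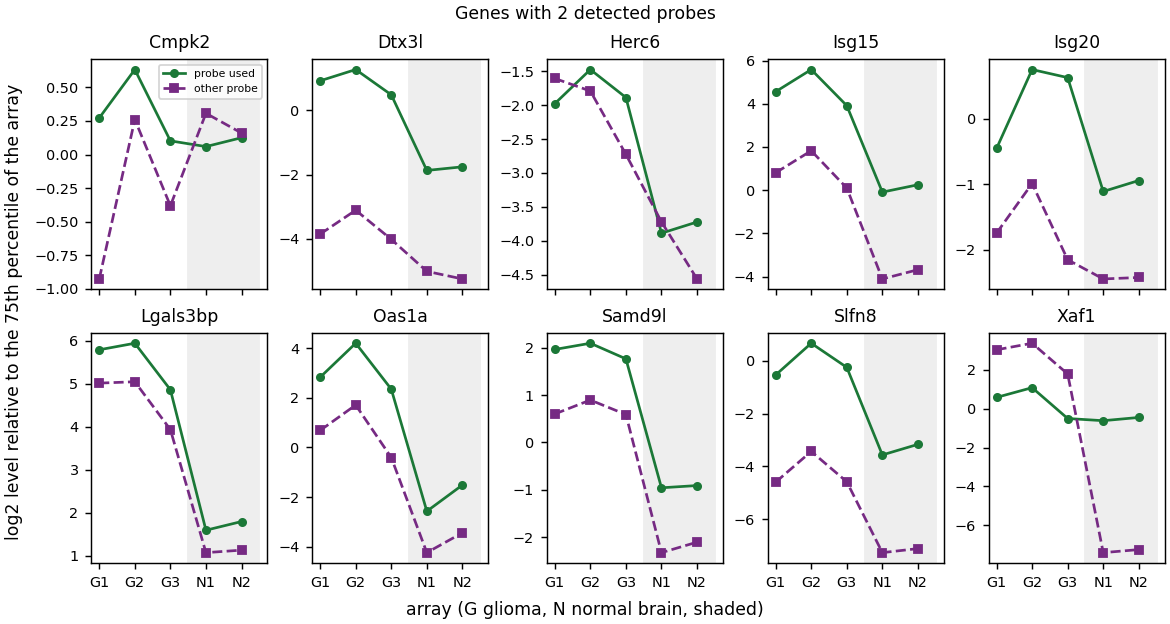
Levels on each array of the 10 interferon-stimulated genes with 2 detected probes (log2 relative to the 75th percentile of the array), with the probe used in green and the other in purple. Both probes of a gene differ between the groups in the same direction except in Cmpk2, and the second Xaf1 probe, below the background flag in normal brain, separates the groups where the used probe does not.

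The gliomas differed from each other in a pattern that most members shared. Glioma 2 was the highest glioma for 35 of 40 members, where it was the highest for 27.6% of all genes tested, and glioma 3 was the lowest for 25, where it was the lowest for 38.5% of all genes. The difference of glioma 2 from glioma 1 had a median of 0.72 over members and ran between -0.46 for Ifitm2 and 2.15 for Oas2, against a median of -0.03 over all genes. Against glioma 3 the median was 1.03 over members and -0.00217 over all genes. Members other than Ifitm2, Ifi27, Ifi35, Ifitm1 and Eif2ak2 all peaked in glioma 2, and Ifi35 was nearly level in gliomas 1 and 2. The normal brain samples also differed in order: 34 of 40 members were higher on normal brain array 2 than on array 1, by a median of 0.30, where 47.8% of all genes were. Each glioma by itself stood above the normal brain mean, by a median over members of 2.62, 3.28 and 2.70 for gliomas 1 to 3. Without glioma replicate 2, 34 members were called higher and the median change was 2.80.

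**Figure D4:**
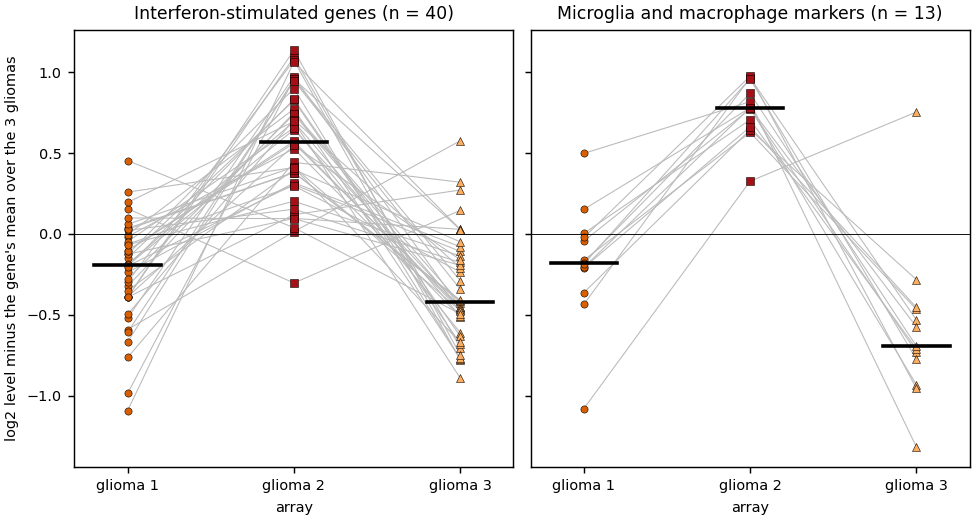
Level on each glioma array minus the mean of the 3 gliomas, with a line for each gene and a bar at the median, for the 40 tested interferon-stimulated genes (left) and 13 microglia and macrophage markers (right). In both panels most genes are highest in glioma 2, 35 of 40 and 12 of 13.

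Markers of microglia and macrophages other than Itgam were also highest in glioma 2. Of 13 markers, 6 rose, 1 fell and 6 did not pass. For this and the other marker lists, the shares over all genes tested were 23.6% called higher and 27.8% lower. The mean level of the 13 markers was 3.18, 4.11 and 2.76 on glioma arrays 1 to 3, against 2.37 and 2.35 on the normal brain arrays. Glioma 2 was highest for 12 of 13. Glioma 2 was also highest for 5 of 7 astrocyte, 5 of 7 oligodendrocyte and 4 of 6 mural cell and fibroblast markers. It was highest for 0 of 7 neuronal, 1 of 6 oligodendrocyte progenitor and 1 of 6 endothelial markers. The summed level of the list, as a log2 of summed signals, was 6.96 to 8.15 in glioma and 6.85 to 6.89 in normal brain. The median change of that list was 1.48, against 3.00 for the interferon-stimulated genes. In glioma 3, where the microglia list had its lowest mean level among the gliomas, the members stood 2.70 above normal brain. In such sums the brightest probes lead. Of 5 monocyte markers tested, Plac8, Lyz2 and Vcan rose and F13a1 fell. Plac8 was at least 14.4-fold higher, and the changes of Lyz2, Vcan and F13a1 were 2.90, 4.08 and -2.29. The summed level of the 5 markers was 2.39 to 3.68 in glioma and -0.36 to -0.26 in normal brain. It followed Vcan, a proteoglycan that glial progenitors also make, at 2.17, 2.51 and 3.43 in gliomas 1 to 3, against -1.34 and -1.41 in normal brain. Of 6 T and NK cell markers tested, 0 rose and 2 fell, with a summed level of 1.63 to 2.05 in glioma and 2.37 to 2.44 in normal brain, led by Cd3e and Cd4. Of 3 B and plasma cell markers, 1 rose and 1 fell, with a summed level of -2.68 to -1.61 in glioma and -2.85 to -2.25 in normal brain, led by Cd79b in glioma and Jchain in normal brain. Of 4 dendritic cell markers Itgax rose and Flt3 fell. Itgax changed by 6.69 ± 0.46 (adjusted p = 0.000571, limma), more than any member on its selected probe, and Flt3 by -1.86. The Itgax probe was well above background on only 1 normal brain array. The summed level of the 4 markers, 6.16 to 6.76 in glioma and 6.09 to 6.17 in normal brain, followed Siglech, which microglia also express. Neither of the 2 neutrophil markers tested passed, and their summed level of 5.85 to 6.64 in glioma and 5.87 to 6.03 in normal brain followed Csf3r. Well above background on no array were Cd3g, Cd8b1, Ncr1, Ms4a1, Xcr1, Clec9a and Retnlg, while Ccr2, Cd8a and S100a8 passed that flag on 1 glioma array each and were not tested. The part of these cells in the change of the interferon-stimulated genes was not tested, and in bulk tissue more responding cells and more RNA per cell cannot be told apart.

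Few interferon genes passed the test. Of 20 type I and III interferon genes listed, 15 had a named probe and 10 were tested, of which 1 passed as higher and 1 as lower. Over all genes tested, 51.4% were called in either direction. The IFN-beta gene Ifnb1 was at -5.75, -5.23 and -6.43 on the glioma arrays and -6.80 and -5.45 on the normal brain arrays, well above background on 1 glioma array and on no normal brain array. No array gave a signal well above background for Ifng, the type II interferon gene. Ifna12, an IFN-alpha gene, had a change of 0.49 ± 0.16 (adjusted p = 0.0491), which was -0.01 with normexp and lost its call when any 1 array was left out. Changes of the other tested IFN-alpha family genes lay between -0.49 for Ifna1 and 0.33 for Ifna13, none passing, apart from Ifna7, which did not pass either and has no measured size, being well above background on 2 gliomas and on no normal brain array. Without glioma replicate 3 Ifna1 passed as lower (-0.67, adjusted p = 0.0143). Without glioma replicate 1 Ifna11 (0.59, adjusted p = 0.0303) and Ifna7 (adjusted p = 0.0427) passed as higher. Near-identical copies may share their signal. The IFN-lambda gene Ifnl3 fell by 0.99 ± 0.16 (adjusted p = 0.00582), and its call was lost without normal brain replicate 1 (adjusted p = 0.0626) or 2 (0.0527). Secreted interferon protein is not measured by these arrays.

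Of 6 receptor genes 3 rose, with a median change of 0.83, where 23.6% of all genes tested were called higher. That count was not tested against this share. Without normal brain replicate 1 or 2 the receptor genes that rose numbered 1. Ifnar2 changed by 0.71 ± 0.21 (adjusted p = 0.0401), a call lost without glioma replicate 1 (0.76, adjusted p = 0.0646) and when normal brain replicate 1 (0.69, 0.187) or 2 (0.73, 0.167) was left out. Ifnar1 did not pass on its brightest probe (0.49 ± 0.24, adjusted p = 0.141, limma). It passed with the mean of its detected probes (0.47, adjusted p = 0.0372) and in the value table (0.85, 0.0273). Fitted on their own, its other probes gave 0.69 ± 0.14 (adjusted p = 0.012) and 0.24 ± 0.26 (0.476). Ifngr1, for IFN-gamma, and Il10rb, a chain of the IFN-lambda and interleukin-10 family receptors, rose by 0.96 and 1.28, and without normal brain replicate 1 or 2 Ifngr1 had an adjusted p of 0.079 and 0.0759. Irf9, the DNA-binding subunit of ISGF3, rose by 2.54 ± 0.15 (adjusted p = 0.000458), with levels of 3.02, 3.24 and 2.99 in gliomas 1 to 3, against 0.61 and 0.49 in normal brain samples 1 and 2. Stat3 rose by 1.62. The kinase gene Jak1 fell by 0.75 ± 0.14 (adjusted p = 0.00852), though without scaling between arrays, as in the value table, the change was -0.40 and did not pass, and the call was lost without normal brain replicate 1 (adjusted p = 0.0917) or 2 (0.0825). Tyk2 and Jak2 did not pass (-0.17 and -0.26).

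Feedback inhibitors, regulatory factors and sensors of nucleic acid held further rises. Over all genes tested, 23.6% were called higher and 27.8% lower, and the counts in these short lists were not tested against those shares. Of 8 feedback inhibitor genes 4 rose and 1 fell, and without normal brain replicate 1 or 2 the rises numbered 2. Socs1 and Socs3, which block the receptor kinases, rose by 1.69 ± 0.16 and 2.48 ± 0.20 (adjusted p = 0.00111 and 0.000771), whereas Cish, a relative induced by STAT5, fell by 2.26 ± 0.17 (adjusted p = 0.000674). Of 7 interferon regulatory factors tested, 3 rose. Irf7, itself induced by interferon and the amplifier of interferon-alpha transcription, was at -0.39, 1.12 and -1.06 on the glioma arrays, against -4.59 and -4.47 on the normal brain arrays (change 4.42 ± 0.65, adjusted p = 0.00423), with glioma 2 highest and the groups far apart. Its change was 3.81 without glioma replicate 2 and 3.04 with normexp, both still called. Irf8 and Irf1 rose by 2.81 and 1.87, while Irf3, the factor that starts interferon-beta transcription, did not pass (-0.01). Of 16 sensor and related genes tested, 11 rose and 2 fell, with 7 and 6 rises without normal brain replicates 1 and 2. The DNA sensor gene Cgas was at 1.33, 1.26 and 1.12 in gliomas 1 to 3, against -2.22 and -1.96 in normal brain samples 1 and 2 (change 3.33 ± 0.16, adjusted p = 0.000386), and another probe gave a smaller change of 1.11 ± 0.20 (adjusted p = 0.00814). Its partner Sting1 rose by 2.42 ± 0.49, a call lost without normal brain replicate 1 (adjusted p = 0.0646) or 2 (0.0584). The RNA sensor genes Ddx58 (RIG-I) and Ifih1 (MDA5) rose by 2.80 ± 0.33 and 2.37 ± 0.34. The other probe of Ddx58 gave 3.81 but was well above background on only 1 normal brain array, so its size is uncertain. That of Ifih1 was at least 3.23-fold higher. On its brighter probe Zbp1, which binds Z-form nucleic acid, was at least 20.2-fold higher, and not well above background in normal brain. The change on that probe was 2.21 in the normexp fit, smaller than the bound. The other Zbp1 probe, also well above background on the gliomas only, was at least 7.02-fold higher. Adar, the RNA-editing enzyme that marks self RNA and whose longer isoform is interferon-induced, fell by 0.99 ± 0.14 (adjusted p = 0.0035), but changed by -0.47 and did not pass with the mean of its detected probes, changed by 0.05 on its other probe, and lost its call without normal brain replicate 1 (-0.91, adjusted p = 0.0526).

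**Figure D5:**
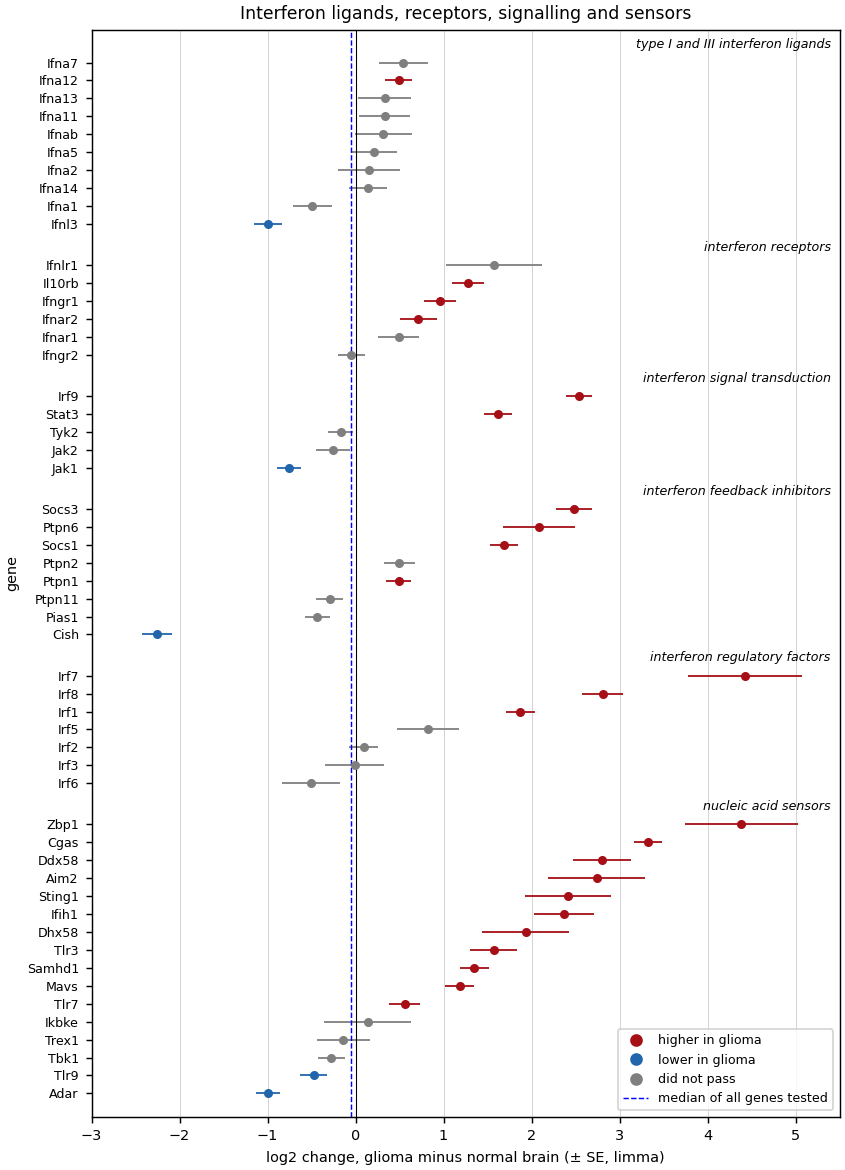
Fitted log2 change, glioma minus normal brain, with its standard error (3 gliomas, 2 normal brain samples), of interferon ligands, receptors, signalling genes, feedback inhibitors, regulatory factors and nucleic acid sensors. Most ligand genes lie near 0, whereas Irf7 lies at 4.42. Zbp1, Aim2, Ifna7 and Ikbke were not well above background in normal brain, so their points are not measured sizes.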

How the data were processed

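The samples were hybridised to 5 Agilent SurePrint G3 mouse arrays in a single colour. The deposited scanner files hold the processed intensity of each spot, already background-subtracted by Agilent Feature Extraction 10.7.3.1, per the file headers, together with flags for spots well above background, saturated or outlying, which the scanner software sets to 0 or 1, per the file headers. Log2 values make up the authors' deposited value table, which matched the log2 of the deposited processed intensity on every array and is not scaled between arrays. Of 55681 probes other than controls, 23 were left out as outliers on an array. Log2 processed signals were set relative to the 75th percentile of each array. RefSeq accessions of the array design were matched to RefSeq symbols: 28019 of 29787 probes with an accession matched. The brightest probe over all arrays stood for a gene, and genes with 2 or more arrays well above background entered the test with limma 3.58.1 (R 4.3.3; lmFit and eBayes), with Benjamini-Hochberg adjustment over 16891 genes and a threshold of 0.05. No sample or slide covariate was used. Alternatives were the authors' value table, quantile normalization, normexp (offset 50), other filters and probe rules, a replicate block and leaving out each array. For normexp the median spot signal was used, because the mean signal is not a column of the files used here. For a gene whose whole group lay below that flag, a lower bound of the fold is given. Each such bound applies to the scaled processed signals only. Probes without the flag can lie above the level it uses, and normexp gave smaller changes for Oas3 and Zbp1. The fit was checked on simulated data with known changes, 100 genes changed 2-fold and 100 changed 4-fold in each of 10 runs. It recovered 10.4% of the 2-fold and 54.8% of the 4-fold changes, so a gene that did not pass may still have changed. Far fewer genes changed in the simulation than were called in the data, so these shares may not carry over. All tests are two-sided. The members, role groups, pathway lists and marker lists were chosen with earlier results of these data known. Genes were named by role group: those with the largest changes, those that did not pass, those with disagreeing probes and those below background in a group, beside genes of the pathway lists. Promoter windows come from RefSeq (GRCm38.p6), and gene order from the RefSeq gene table. The array design and the promoter table are of different builds, so no array coordinates are given. Some genes of the pathway and marker lists are not reported here.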

Additional observations from a re-analysis of the deposited data

How the results depend on the processing

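The members called higher numbered 32 to 36 of those tested under the 6 alternatives that use every array, and 0 members were called lower under any of the 12 alternatives. Of the 40 members, 25 were called higher in the comparison as reported and under all 12. The median change of the members was 2.44 with normexp, against 3.00, and the cause was not tested. When 1 array was left out, members called higher numbered 27 to 34 and their median change was 2.80 to 3.22, while the counts over all genes ranged over 1973 to 4334 higher and 2626 to 4991 lower; the lowest counts came without a normal brain array, which leaves 1 normal brain sample, assumed to vary like the gliomas. Without a filter on dim probes 6076 genes were lower, against 4693, and the value table called 5598 higher and 3185 lower. Directions turned for Sp100 with normexp (-0.000657), and for Cmpk2 with the mean of its detected probes (-0.17) and on its other probe (-0.58); fitting the other probes separately was chosen after seeing the data. Replicate numbers do not show pairing: deviations from the group means of same-numbered samples correlated at 0.013 and 0.049. Glioma 3 has no normal brain sample of its number, so the block fit takes each change from the other 4 arrays, as without glioma replicate 3. With the replicate block 36 members were higher, 3787 genes were higher and 4479 lower, and the median member change was 3.12. Under the block Isg20 did not pass (1.18, adjusted p = 0.0576), while Uba7 (1.52), Slfn2 (1.64) and Xaf1 (1.36) did, with adjusted p = 0.0325, 0.0348 and 0.0126. In the value table Sp100 (0.81, adjusted p = 0.0409) and Slfn2 (1.68, 0.0435) passed. Signal over background limits Oas3, Oas1g and Slfn5.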
